A study of Mus musculus with 27 samples.

Results

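Cell cycle and proliferation genes were described across microglia sorted from mouse brain after intracerebral hemorrhage (ICH). The set holds 54 of the 56691 gene identifiers in the deposited table. Each of the 54 symbols matched 1 identifier in the GENCODE M21 annotation, and a gene was kept where at least 3 of the 27 libraries had a count. All 54 were kept, with the fewest in Cdc6, which had counts in 13 libraries, and 16 had counts in every library. By role they are 8 genes of G1 control, 16 genes of S phase, 27 genes of mitosis and 3 genes that cycling cells use heavily but other cells use too.

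The study addressed gut microbes and the state of microglia after a bleed, and compared 3 kinds of wild-type mice. These were specific pathogen-free mice (SPF), mice given a cocktail of antibiotics (ABX) and germ-free mice (GF). Each kind gave 3 groups of 3 libraries: collagenase-induced ICH sampled at day 3, the same at day 7, and a sham operation with PBS in place of collagenase, labelled day 7. Collagenase makes a bleed by breaking down vessel walls, microglia were sorted by flow cytometry from tissue around the hematoma, and no marker of the sorting gate was given. Every day 3 comparison with sham therefore also differs in day. No label says that the 3 libraries of a group came from separate mice, so p-values measure the spread between these libraries, which may be technical. RNA was sorted in bulk, and more cycling cells cannot be told apart from more of these transcripts per cell.

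Adult microglia are long-lived resident macrophages of the brain that divide slowly in health and can divide locally after injury. A cell commits to division in G1, when D-type cyclins with Cdk4 and cyclin E with Cdk2 release E2F factors from restraint. E2F factors then switch on the genes of DNA synthesis, and in G2 a later wave of genes builds the spindle and drives chromosome separation. This later wave is read through a promoter element called the cell cycle genes homology region (CHR), bound by the DREAM and MuvB complexes. Transcripts of both waves are low in resting cells, so they mark cycling cells in a tissue.

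The letters of both elements were looked for in the members' promoters. Promoters were taken from RefSeq on the GRCm38.p6 build, which has an entry for 44 of the 54 members, as windows of 300 bases from 250 bases before to 50 bases after the start of transcription. The letters searched, on both strands, were TTTGAA for the CHR, CCAAT for the CCAAT box bound by NF-Y, and for E2F the 4 words TTTCCCGC, TTTGGCGC, TTTCGCGC and TTCCCGCC. The E2F words can overlap one another. These motifs were chosen after the expression values had been seen. Counts are of genes with an entry, and a gene counted where any of its windows held the letters. The CHR letters were found for 17 of 23 mitosis genes (73.9%), 2 of 14 S phase genes (14.3%) and 20.2% of all 27025 genes. An E2F word was found for 8 of 14 S phase genes (57.1%), 1 of 23 mitosis genes (4.35%) and 4.0% of all. The CCAAT letters were found for 21 of 23 mitosis genes (91.3%), 11 of 14 S phase genes (78.6%) and 41.1% of all. A match is a description of the letters and not a measured binding site.

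Promoters of 3 mitosis genes are printed because they carry the CHR letters, which are in capitals. They are the 250 bases before the start, 5′ to 3′ on the gene's own strand, here the minus strand for each. Mki67 lies at chr7:135716380-135716629, Top2a at chr11:99024190-99024439 and Ccnb2 at chr9:70421555-70421804.
Mki67: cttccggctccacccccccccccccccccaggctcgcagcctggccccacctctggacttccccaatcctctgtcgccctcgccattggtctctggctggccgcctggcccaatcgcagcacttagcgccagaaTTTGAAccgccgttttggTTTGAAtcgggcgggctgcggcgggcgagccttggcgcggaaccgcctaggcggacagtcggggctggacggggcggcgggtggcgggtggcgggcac
Top2a: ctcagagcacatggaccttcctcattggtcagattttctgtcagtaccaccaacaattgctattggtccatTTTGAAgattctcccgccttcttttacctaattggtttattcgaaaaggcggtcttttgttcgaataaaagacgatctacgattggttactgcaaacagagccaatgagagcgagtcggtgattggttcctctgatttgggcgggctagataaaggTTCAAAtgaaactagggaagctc
Ccnb2: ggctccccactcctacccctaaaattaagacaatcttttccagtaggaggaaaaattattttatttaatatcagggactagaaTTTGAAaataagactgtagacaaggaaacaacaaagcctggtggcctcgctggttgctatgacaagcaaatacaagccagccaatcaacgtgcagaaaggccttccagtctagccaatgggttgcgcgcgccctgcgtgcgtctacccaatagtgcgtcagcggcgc
Mki67 encodes the Ki-67 protein used as a stain for cycling cells, Top2a untangles sister chromosomes and Ccnb2 is a B-type cyclin of mitosis. Their windows hold 2, 2 and 1 copies of the CHR letters.

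Promoters of 2 subunits of the replicative helicase are printed for contrast, with the E2F words in capitals. Mcm5 lies on the plus strand at chr8:75109259-75109508 and Mcm6 on the minus strand at chr1:128359706-128359955.
Mcm5: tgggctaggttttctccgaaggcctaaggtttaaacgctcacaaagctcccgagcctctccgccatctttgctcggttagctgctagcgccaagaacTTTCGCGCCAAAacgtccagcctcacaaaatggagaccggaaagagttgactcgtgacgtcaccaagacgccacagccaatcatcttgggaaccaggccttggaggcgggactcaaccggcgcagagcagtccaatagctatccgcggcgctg
Mcm6: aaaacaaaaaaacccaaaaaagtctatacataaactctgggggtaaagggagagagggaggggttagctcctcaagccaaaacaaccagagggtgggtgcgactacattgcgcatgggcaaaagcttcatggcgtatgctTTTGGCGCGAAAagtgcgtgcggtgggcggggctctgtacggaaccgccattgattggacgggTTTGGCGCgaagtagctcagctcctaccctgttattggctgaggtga
Counting overlapping matches on both strands, the Mcm5 window holds 2 E2F words and the Mcm6 window holds 3. Neither holds the CHR letters, and none of the 3 mitosis windows holds an E2F word.

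The libraries held 41664864 to 79090595 counts, and levels are given as CPM, read counts scaled to a common library size that includes the TMM factor. On that scale 3 counts per library were worth 0.0464 CPM in SPF sham. They differed far more in the number of genes detected, from 9185 to 18408. In 7 libraries fewer than 12000 genes were detected, namely the first 2 replicates of GF sham, the first 2 of ABX ICH day 7 and the whole GF ICH day 7 group. Microglia markers were present in every group, with a summed level of 10 genes from 19043 to 115566 CPM. All 54 members passed the low count filter among the 17573 genes tested, but the spread between replicates was large, with a common biological coefficient of variation of 1.54. Many results that rest on the 7 libraries are also given without them where a group was left. The comparisons of GF with SPF mice in sham and in the day 3 response are given only with them.

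**Figure D1:**
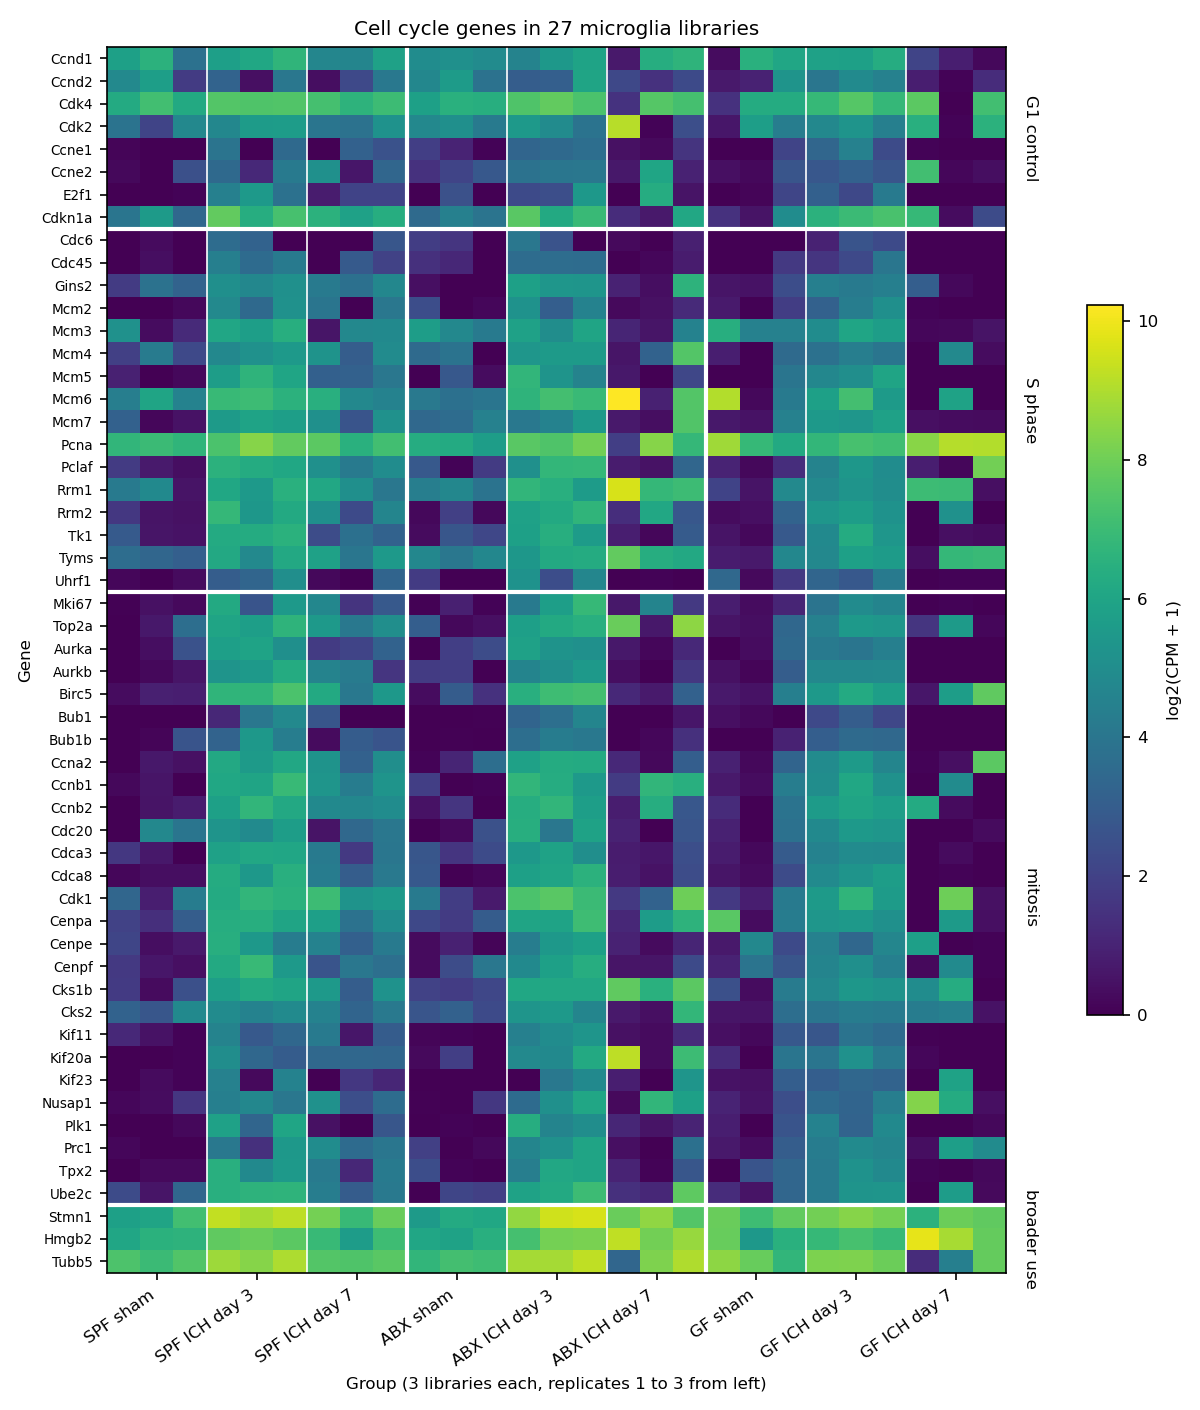
Level of each of the 54 members (rows, by role) in each of the 27 libraries (columns, 3 per group), as log2(CPM + 1). The 9 ICH day 3 libraries are bright over nearly all rows, sham libraries hold 11 to 36 members at 1 CPM or more except GF sham replicate 3 with 51, and ICH day 7 libraries differ between SPF, ABX and GF.

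At day 3 after ICH, nearly the whole program was present in every library of all 3 kinds of mice. In SPF mice, 51 to 54 of the 54 members stood at 1 CPM or more in the day 3 libraries, against 17 to 28 in the sham libraries. In ABX mice the counts were 53 to 54 against 28 to 36. In GF mice they were 53 to 54 against 11, 18 and 51, the last being GF sham replicate 3. All 3 SPF day 3 libraries lay above all 3 SPF sham libraries for 46 members, against 9.18% of all genes tested. The same held for 46 members in ABX mice, where 9.74% of all genes did so, and for 40 in GF mice, where 10.8% did. In 33 members it held in all 3 kinds of mice, and in 3 members, Ccnd1, Ccnd2 and Cdk2, in none. No share of all genes is given here for the 3 kinds of mice together. The SPF and ABX counts use none of the 7 libraries with few genes.

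Among the roles, mitosis genes had the largest share above sham at day 3 in all 3 kinds of mice at once. Day 3 libraries lay above sham for 25 of 27 in SPF, 26 of 27 in ABX and 24 of 27 in GF mice, and 22 did so in all 3. Their summed level was 37.1, 41.7 and 111 CPM in the SPF sham libraries and 1450, 1309 and 1540 CPM at day 3. In ABX mice it was 62.2, 45.6 and 63.2 CPM in sham and 1307, 1537 and 1792 CPM at day 3. In GF mice it was 219, 51.8 and 255 CPM in sham and 609, 926 and 767 CPM at day 3. Within each kind of mouse the groups did not overlap, and the lowest SPF or ABX day 3 library was above the highest GF one.

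Mki67 stood at 0.0558, 0.387 and 0.209 CPM in SPF sham and at 74.1, 5.26 and 45.4 CPM at day 3. The groups did not overlap, with replicate 2 far below the other two at day 3. Its log2 fold change was 7.57 ± 2.01 (SE, n = 3 per group, edgeR adjusted p = 0.354). In ABX mice Mki67 went from 0.0504, 0.851 and 0.0698 to 17.2, 51.8 and 115 CPM, and in GF mice from 0.765, 0.261 and 1.09 to 14.5, 29.7 and 23.6 CPM. Both pairs of groups were apart, but neither difference passed edgeR's threshold after adjustment.

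Birc5, which encodes survivin of the chromosomal passenger complex, was at 0.265, 0.844 and 0.79 CPM in SPF sham and at 103, 104 and 162 CPM at day 3. All 3 sham libraries were under 1 CPM and far below the day 3 libraries. The log2 fold change was 7.60 ± 1.88 (SE, n = 3 per group, edgeR adjusted p = 0.22). Cdca8, another subunit of that complex, was at 0.139, 0.317 and 0.313 CPM in sham and at 77.8, 42.4 and 86.4 CPM at day 3. Its log2 fold change was 8.06 ± 2.10 (edgeR adjusted p = 0.316, n = 3), again with no overlap. With Mki67, these had the smallest p-values among the mitosis genes in this comparison.

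The cyclin and kinase that drive entry into mitosis followed the same course. Ccnb1, cyclin B1, was at 0.153, 0.51 and 0 CPM in SPF sham and at 68.2, 62.3 and 117 CPM at day 3. Its partner Cdk1 was at 9.46, 0.827 and 18.6 CPM in sham and at 76.2, 106.5 and 92.5 CPM at day 3. Cdk1 was thus already measurable in 2 of 3 sham libraries, and its log2 fold change of 3.25 ± 1.99 was the smaller one (8.53 ± 2.84 for Ccnb1, SE, n = 3). Top2a was at 0, 0.598 and 12.1 CPM in SPF sham and at 62.4, 52.3 and 100.4 CPM at day 3, a log2 fold change of 4.08 ± 2.11. For Ccnb1 and Top2a, edgeR's adjusted p was 0.659, and for Cdk1 it was 0.74.

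Bub1, a kinase of the spindle checkpoint, had no count in any SPF sham library and stood at 1.21, 15.8 and 27.5 CPM at day 3. With 3 counts per sham library as the floor, its mean was at least 320.1-fold higher at day 3. Kif23, a kinesin of cell separation, had no count in any ABX sham library and stood at 0, 15.9 and 28.1 CPM at ABX day 3, at least 312.0-fold higher in the mean. Kif23 overlapped sham through the day 3 library at 0. Cks2, a small partner of Cdk1, was the least changed mitosis gene in SPF and ABX mice, with log2 fold changes of 0.97 and 2.63.

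S phase genes were also higher, in 15 of 16 members in SPF, 13 in ABX and 10 in GF mice by the same rule, and 8 did so in all 3. Their summed level was 213, 257 and 149 CPM in SPF sham and 986, 1045 and 1066 CPM at day 3. In ABX mice it was 231, 199.8 and 150.4 CPM in sham and 961, 949 and 1049 CPM at day 3. In GF mice it was 1073, 138 and 240.1 CPM in sham and 463, 768 and 647 CPM at day 3, so these groups overlapped through GF sham replicate 1. That library held 536 CPM of Mcm6 and 433 CPM of Pcna.

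Mcm5 was at 0.92, 0 and 0.179 CPM in SPF sham and at 51.4, 101 and 63.5 CPM at day 3. The groups were far apart, and the log2 fold change was 7.60 ± 2.87 (SE, n = 3, edgeR adjusted p = 0.659). Mcm6, a subunit of the same helicase, was already at 19.95, 61.3 and 22.1 CPM in SPF sham and reached 117, 129.5 and 93.45 CPM. Its log2 fold change of 1.72 ± 1.98 was the smaller of the pair. Mcm2, also of the helicase, was at 0, 0 and 0.149 CPM in sham and at 27.2, 10.2 and 35.1 CPM at day 3 (8.86 ± 2.91 on the log2 scale).

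Enzymes that supply DNA building blocks were higher too. Rrm2, the S phase subunit of ribonucleotide reductase, was at 2.19, 0.457 and 0.387 CPM in SPF sham and at 112, 42 and 73.2 CPM at day 3. Tyms, thymidylate synthase, was at 11.8, 9.41 and 7.67 CPM in sham and at 70.7, 27.4 and 70.9 CPM at day 3. Tk1, the cytosolic thymidine kinase, was at 6.47, 0.493 and 0.432 CPM in sham and at 74.6, 76.8 and 92.2 CPM at day 3. For each of the 3 the day 3 libraries were all above sham, with log2 fold changes of 6.22 ± 2.38, 2.55 ± 1.33 and 5.04 ± 1.77 (SE, n = 3, edgeR adjusted p = 0.659 for each).

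Pcna, the sliding clamp of DNA polymerases that also serves DNA repair, was well expressed without injury. It was at 104, 124 and 103 CPM in SPF sham and at 162, 333 and 215 CPM at day 3. The groups were apart, but the log2 fold change was only 1.10 ± 0.84 (SE, n = 3, edgeR adjusted p = 0.924), the smallest of the 16 S phase genes in SPF mice. Pclaf, a factor that binds the clamp, was at 2.47, 0.651 and 0.313 CPM in sham and at 93.8, 78.6 and 67.3 CPM at day 3. Its log2 fold change was 6.12 ± 2.02, and it was apart from sham at day 3 in all 3 kinds of mice.

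**Figure D2:**
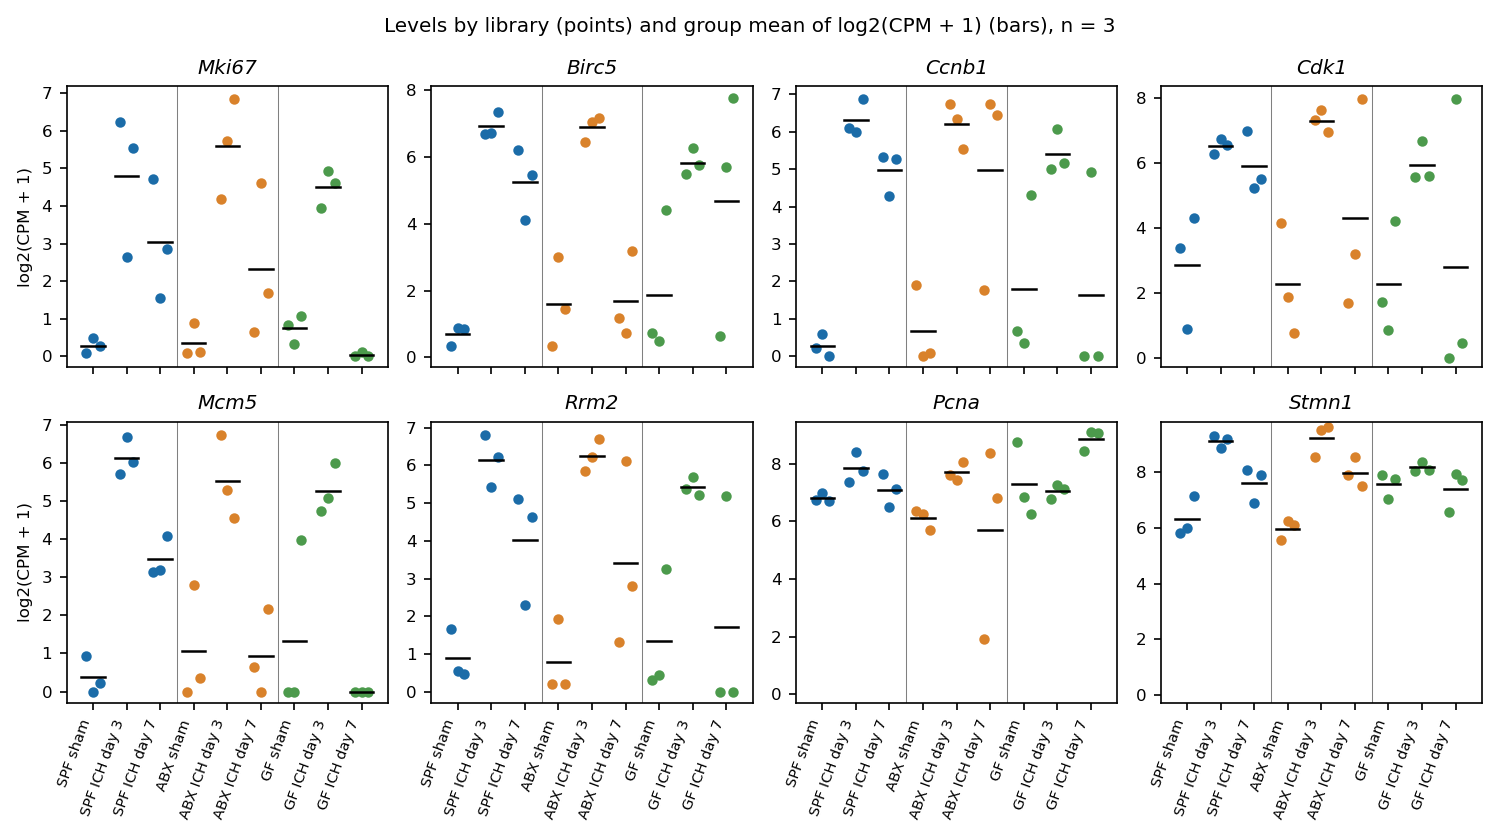
Levels of 8 members as log2(CPM + 1) in each library (points) with the mean of each group (bar, n = 3), blue for SPF, orange for ABX and green for GF. Mki67, Birc5, Ccnb1, Cdk1, Mcm5 and Rrm2 are higher in every day 3 library than in any sham library of the same kind of mouse. Mki67 is at only 5.26 CPM in SPF day 3 replicate 2, and Cdk1 reaches 18.6 CPM in SPF sham. Pcna and Stmn1 are well expressed in sham.

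Genes of G1 control were mixed. Day 3 libraries lay above sham for 3 of 8 in SPF, 4 in ABX and 5 in GF mice. The D-type cyclins Ccnd1 and Ccnd2, which couple outside signals to the cycle, overlapped between day 3 and sham in each kind of mouse. Ccnd1 was at 56, 95.7 and 13.2 CPM in SPF sham and at 54.5, 66.7 and 104 CPM at day 3 (0.45 ± 1.32 on the log2 scale). Ccnd2 was at 27, 52.4 and 2.4 CPM in sham and at 8.53, 0.335 and 15.6 CPM at day 3 (-1.74 ± 1.63).

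E2f1, the cyclin E genes and their kinase Cdk2 act at the boundary of G1 and S phase. E2f1, an E2F factor, was at 0, 0 and 0.0596 CPM in SPF sham and at 21.1, 44.6 and 13.2 CPM at day 3 (log2 fold change 10.21 ± 3.52, edgeR adjusted p = 0.659, n = 3). With almost no count in sham, that value is not the size of a change. In ABX mice E2f1 overlapped, since sham replicate 2 had 4.83 CPM and day 3 replicate 1 had 3.93 CPM. Ccne1, cyclin E1, was at 0.112, 0 and 0 CPM in SPF sham and at 14.4, 0 and 10.4 CPM at day 3, so the groups overlapped through day 3 replicate 2. Ccne2, cyclin E2, was at 0.167, 0 and 4.72 CPM in SPF sham and at 10.25, 1.265 and 17.6 CPM at day 3, also with an overlap. Cdk2 was at 13.7, 3.255 and 26.4 CPM in SPF sham and at 25.8, 47.8 and 50.03 CPM at day 3. It overlapped with sham in all 3 kinds of mice, with log2 fold changes of 1.51 in SPF, 0.20 in ABX and 0.25 in GF mice.

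Cdkn1a encodes p21, an inhibitor of cyclin-dependent kinases that slows the cycle, and its level was higher at day 3 as well. It was at 14.9, 47.25 and 9.55 CPM in SPF sham and at 218, 82.9 and 153 CPM at day 3. In ABX mice it went from 10.6, 21 and 14.3 to 195, 73.7 and 122 CPM, and in GF mice from 1.77, 0.458 and 30.2 to 93.5, 126 and 155 CPM. The groups were apart in all 3 kinds of mice. The log2 fold changes were 2.66 ± 1.60, 3.09 ± 1.63 and 3.53 ± 1.66 (SE, n = 3 per group), with edgeR adjusted p-values of 0.731, 0.595 and 0.797.

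Of the 3 genes of broader use, Stmn1 gave the only members' calls at day 3 in the edgeR fit. Stmn1 encodes stathmin, which takes apart microtubules and is abundant in dividing cells and in neurons. It was at 54.9, 62.8 and 141 CPM in SPF sham and at 632, 474 and 592 CPM at day 3, with no overlap. The log2 fold change was 2.72 ± 0.53 (SE, n = 3, edgeR adjusted p = 0.029). In ABX mice it went from 46.5, 74.8 and 68.1 to 377, 729 and 786 CPM, a log2 fold change of 3.32 ± 0.54 (edgeR adjusted p = 0.00411, n = 3). In GF mice it went from 236, 132 and 218 to 265, 334 and 270.3 CPM. The groups did not overlap there either, but the change of 0.57 ± 0.49 did not pass (edgeR adjusted p = 0.91, n = 3). GF sham thus held more Stmn1 than SPF or ABX sham in 2 of its 3 libraries.

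In all, 1 member of 54 passed edgeR's adjusted threshold at day 3 in SPF mice, against 0.102% of all genes, and 1 in ABX mice, against 0.125%. In GF mice 0 of 54 passed, against 0.00569% of all genes, with 6 at an unadjusted p under 0.05, 5 by DESeq2 and 0 by limma voom. The Stmn1 call depends on single libraries in both kinds of mice. In SPF mice it was lost without sham replicate 1 (edgeR adjusted p = 0.446) or 2 (0.394), and without day 3 replicate 1 (0.191), 2 (0.0948) or 3 (0.151). In ABX mice it was lost without sham replicate 1 (edgeR adjusted p = 0.108), 2 (0.0543) or 3 (0.0689). Its direction stayed, with log2 fold changes from 2.48 to 3.27 in SPF and from 3.13 to 3.59 in ABX mice.

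Hmgb2 and Tubb5 complete that group. Hmgb2, a chromatin protein, was at 65.4, 91.1 and 97.8 CPM in SPF sham and at 214, 234.5 and 203 CPM at day 3 (log2 fold change 1.36 ± 0.59, edgeR adjusted p = 0.659, n = 3). Tubb5, a beta tubulin, was at 165, 126 and 176 CPM in sham and at 428, 335 and 501 CPM at day 3 (1.44 ± 1.01, edgeR adjusted p = 0.856, n = 3). Both were apart from sham in SPF and ABX mice and overlapped in GF mice.

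How many members are called at day 3 differed with the tool and with the libraries in the fit. DESeq2 called 27 members in SPF mice (5.89% of all genes) and 21 in ABX mice (6.7%), and limma voom called 28 (3.01%) and 37 (4.94%). In an edgeR fit without the 7 libraries with few genes, chosen after the data were seen, 22 members rose in SPF mice (1.26% of all genes) and 19 in ABX mice (1.24%). In GF mice the same fits gave 5 members by DESeq2, Mki67, Cdca8, Tk1, Pclaf and Cdc6 (4.39% of all genes), 0 by limma voom (0.0%) and 0 by edgeR without those libraries (0.00453%). Every member called at day 3 in these fits was higher than in sham. In SPF mice 17 members were called by all 3 of these fits, 13 of them of mitosis, among them Mki67, Birc5, Ccnb1, Aurkb, Tpx2 and Cdca8. In ABX mice 11 were called by all 3, of which 7 were of mitosis. No share of all genes is given for calls by the 3 fits together.

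Fold changes were larger for mitosis genes than for S phase genes in SPF and ABX mice. At day 3 in SPF mice the median log2 fold change was 6.26 over the 27 mitosis genes, 4.64 over the 16 S phase genes, 2.04 over the 8 G1 genes and 1.44 over the 3 of broader use, against -0.07 over all genes. In ABX mice the 4 medians were 5.31, 3.30, 1.63 and 2.01, against 0.00 over all genes. In GF mice they were 3.03, 2.86, 1.56 and 0.28, against 0.23. S phase minus mitosis was thus -1.62 in SPF, -2.01 in ABX and -0.17 in GF mice, given as a description with no test. The SPF value lay between -3.65 and -0.51 when single libraries were left out, and the GF value changed sign to 0.12 without the libraries with few genes.

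S phase and mitosis genes were also set side by side within each group. In SPF sham, 13 of 27 mitosis genes were under 1 CPM in all 3 libraries and 2 were over it in all 3, whereas for S phase genes the counts were 5 and 5 of 16. Fold changes from so low a baseline depend on few counts, and its part in the medians above was not tested. At SPF day 3, 26 of 27 mitosis genes and 15 of 16 S phase genes were at or over 1 CPM in all 3 libraries. As a mean of log2 CPM centred per gene over the 27 libraries, S phase minus mitosis was 1.13 ± 1.51 (SD, n = 3) in SPF sham, 1.58 ± 0.91 in ABX sham and -0.22 ± 0.61 in GF sham. The centring sets where 0 lies on this scale, so only differences between groups can be read from it. At day 3 it was -0.46 ± 0.36 in SPF, -0.75 ± 0.73 in ABX and -0.44 ± 0.22 in GF mice. In SPF mice the sham libraries ranged from -0.34 to 2.67 and the day 3 libraries from -0.83 to -0.11, so the groups overlapped. In ABX mice they did not, with 0.62 to 2.42 in sham and -1.38 to 0.05 at day 3. In GF mice they overlapped, with -0.57 to 0.49 in sham and -0.66 to -0.23 at day 3.

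**Figure D3:**
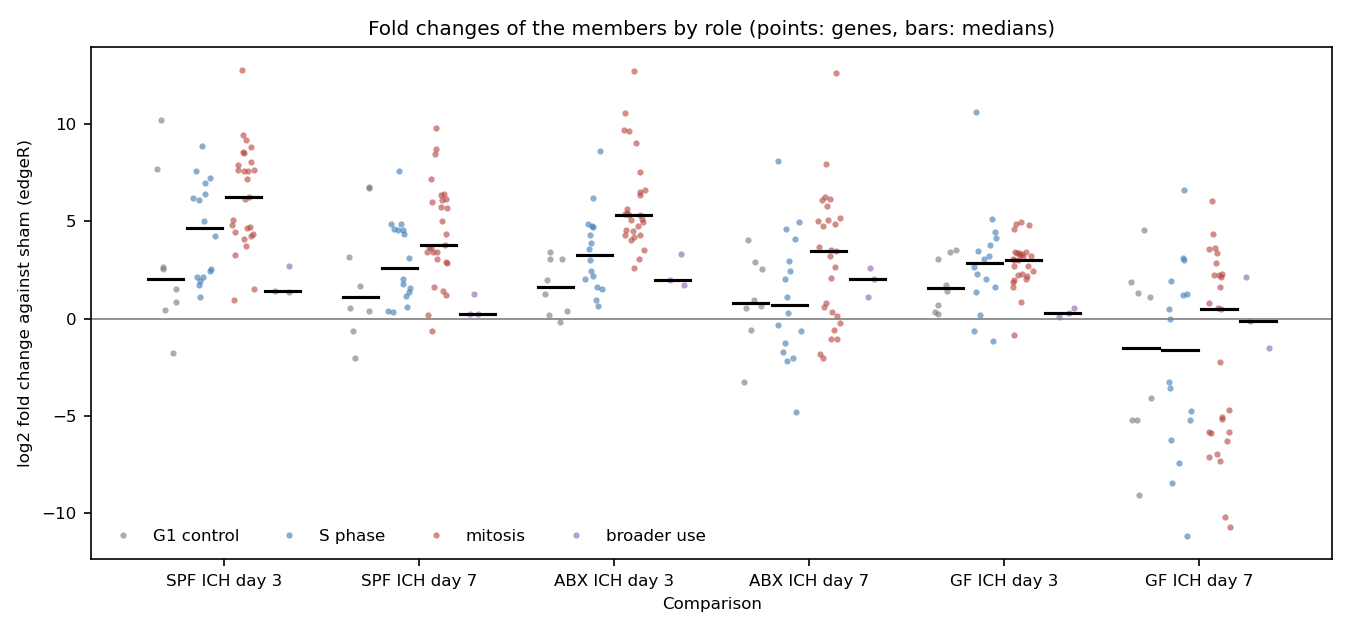
Log2 fold change against sham (edgeR) of each member (points) and the median of its role (black bars) in 6 comparisons. Mitosis medians exceed S phase medians in all 6, by 1.62 in SPF ICH day 3 and by 0.17 in GF ICH day 3, and GF ICH day 7 spreads from -11.15 to 6.61.

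**Figure D4:**
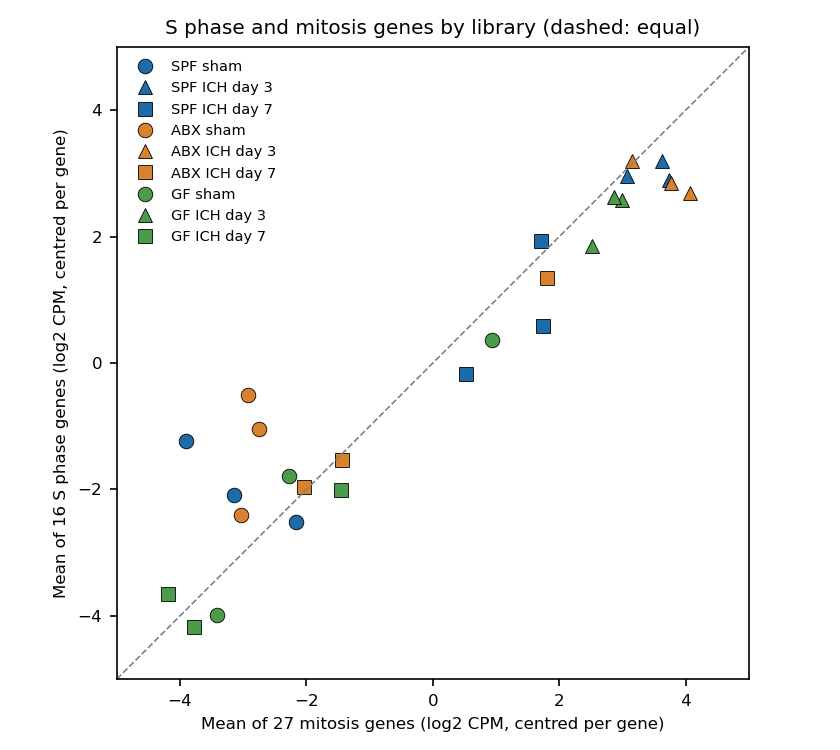
Mean of the 16 S phase genes against the mean of the 27 mitosis genes in each library, as log2 CPM centred per gene over the 27 libraries, with the line of equal values dashed. The 9 day 3 libraries are at the top right, 2 of 3 SPF and 3 of 3 ABX sham libraries are above the line, and GF sham replicate 3 (0.37 and 0.94) sits among the day 7 libraries.

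Levels of other cell types were read from marker lists beside the day 3 result. The summed level of 6 markers of border macrophages was 0.756 to 8.31 CPM in SPF sham and 48.2 to 153 CPM at day 3, with Cd163 and Lyve1 at 0 in all 3 day 3 libraries. In ABX mice it was 4.38 to 22.1 CPM in sham and 48.0 to 156 CPM at day 3, and in GF mice 5.20 to 12.4 and 31.9 to 90.9 CPM. The summed level of 8 monocyte markers was 20.1 to 39.7 CPM in SPF sham and 66.4 to 76.3 CPM at day 3, 13.04 to 25.1 and 23.6 to 85.7 CPM in ABX mice, and 39.8 to 615 and 51.3 to 269.7 CPM in GF mice. The summed level of 10 microglia markers was lower at SPF day 3, from 26190.0 to 31239 CPM against 47501 to 61774 CPM in sham. In ABX mice it was 19043 to 32924 CPM at day 3 against 52744 to 64159 CPM. In GF mice it overlapped, with 26654 to 45538 CPM at day 3 against 42682 to 96126 CPM. All 3 day 3 libraries lay below sham for 6, 6 and 5 of the 10 in SPF, ABX and GF mice. Over all genes the shares were 6.98%, 10.1% and 2.98%. Genes detected were 14078 to 15331 at SPF day 3 and 13536 to 17051 in SPF sham. The part of these in the cell cycle result was not tested.

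At day 7 the program was lower but still present in SPF mice. From 43 to 53 members stood at 1 CPM or more, and all 3 day 7 libraries lay above sham for 24 members, against 5.94% of all genes. Of these 18 of 27 were of mitosis, 4 of 16 of S phase and 2 of 8 of G1 control, and 0 of 3 were of broader use. The summed mitosis level was 719.95, 259.8 and 487 CPM, between sham and day 3 and with no overlap with either. The summed S phase level was 598, 264 and 452 CPM, also apart from both.

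Against day 3, all 3 SPF day 7 libraries were lower for 32 members, 18 of mitosis, 9 of S phase, 2 of G1 control and 3 of broader use, where 5.91% of all genes did so, and for 0 members were they all higher. The median log2 change from day 3 to day 7 was -1.63 over mitosis genes, -1.43 over S phase genes and 0.00 over all genes. Mki67 stood at 25.4, 1.94 and 6.26 CPM at day 7, Ccnb1 at 39.2, 18.6 and 38 CPM, and Birc5 at 72.6, 16.3 and 43.25 CPM. All 3 genes were above sham in every library, while Mki67 overlapped with day 3. Stmn1 was at 271, 118 and 239.7 CPM at day 7 and overlapped with sham.

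By edgeR, 0 of 54 members passed at SPF day 7 against sham, where 0.0797% of all genes did, with 21 at an unadjusted p under 0.05. DESeq2 called 12 (4.38% of all genes), limma voom 2, Ccnb1 and Prc1 (0.842%), and edgeR without the 7 libraries with few genes 2, Birc5 and Cenpa (0.317%). Against day 3, edgeR called 0 members and 0.0% of all genes, with 1 member, Stmn1, at an unadjusted p under 0.05. DESeq2 called 0 (4.09% of all genes) and limma voom 3, Bub1, Stmn1 and Tk1, all lower at day 7 (0.501%). Stmn1 fell by 1.43 ± 0.50 on the log2 scale without passing edgeR's adjusted threshold (0.971).

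In ABX mice the 3 libraries of day 7 did not resemble one another. Members at 1 CPM or more numbered 24, 21 and 48, and genes detected numbered 10184, 10997 and 14221. All 3 lay above sham for 7 members, against 7.8% of all genes: Kif11, Plk1, Cks1b, Tyms, Rrm1, Stmn1 and Hmgb2. Of these, Kif11 was at only 0.379, 0.217 and 1.37 CPM, against 0.101, 0.0681 and 0 CPM in sham. Plk1 was at only 1.14, 0.451 and 1.02 CPM, against 0, 0.0851 and 0 CPM. Replicate 3 had 26 of 27 mitosis genes at 1 CPM or more. In replicates 1 and 2 it was 11 and 8, and a few members were very high there, such as Kif20a at 589.9 CPM and Mcm6 at 1203 CPM in replicate 1. The summed mitosis level was 1063, 469.9 and 1603 CPM and the summed S phase level 2209.8, 605 and 996 CPM, all above ABX sham and both overlapping with day 3.

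Hmgb2 was the 1 member called by edgeR at ABX day 7, where 0.945% of all genes were. It was at 65.2, 59 and 87 CPM in ABX sham and at 616, 268 and 403 CPM at day 7, with no overlap. The log2 fold change was 2.61 ± 0.62 (SE, n = 3, edgeR adjusted p = 0.0409). It was lost without ABX sham replicate 1 (edgeR adjusted p = 0.214), 2 (0.212) or 3 (0.183) and without day 7 replicate 1 (0.153), with log2 fold changes from 2.26 to 2.86. Stmn1 was at 237, 374 and 179 CPM at ABX day 7, above all 3 sham libraries (log2 fold change 2.06 ± 0.51, edgeR adjusted p = 0.0508, n = 3). Without replicates 1 and 2, which leaves 1 day 7 library assumed to vary like the others, 13 members were higher than in sham in the edgeR fit, where 7.79% of all genes were called. With all libraries DESeq2 called 14, all higher (29.8% of all genes), and limma voom 5, Cks1b, Ccnb1, Gins2, Hmgb2 and Nusap1 (3.31%).

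Against day 3, all 3 ABX day 7 libraries were lower for 26 members, against 18.1% of all genes. By edgeR 0 members passed, where 0.728% of all genes did, with 16 at an unadjusted p under 0.05. DESeq2 called 23, all lower (29.4% of all genes), limma voom 0 (1.99%), and edgeR without the 7 libraries with few genes 1, Stmn1, lower (7.98%).

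In GF mice at day 7 most members were low in each library, and a few were very high. Members at 1 CPM or more numbered 17, 21 and 13, against 53 to 54 at GF day 3. In all 3 libraries 12 of 27 mitosis genes and 8 of 16 S phase genes were under 1 CPM. Mki67 was at 0, 0.0752 and 0 CPM, and Aurka, Aurkb, Bub1, Bub1b, Mcm5, Cdc45, Cdc6 and E2f1 had no count in any of the 3 libraries. The summed mitosis level was nevertheless 501, 791 and 448 CPM, above GF sham and overlapping with GF day 3. The summed S phase level was 479.9, 902 and 922 CPM and overlapped with both. Against the floor of 3 counts per library, the GF sham mean was at least 80.0-fold higher for Mcm5, 58.5-fold for Aurka and 40.95-fold for Aurkb. Those means rest on GF sham replicate 3, since the 3 sham libraries were at 0, 0 and 14.6 CPM for Mcm5, at 0, 0.283 and 10.4 CPM for Aurka and at 0.363, 0.109 and 7.004 CPM for Aurkb. The day 7 libraries had 9489, 11043 and 9185 genes detected. Their summed monocyte markers were 604 to 1886 CPM, against 39.8 to 615 CPM in GF sham, and their summed neutrophil markers 817 to 3917 CPM, against 232 to 895 CPM, with Elane and Mpo at 0 in all 3. The part of either in the result was not tested.

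Not all members were low there. Pcna stood at 344, 544 and 538 CPM, above all 3 GF day 3 libraries at 109, 152 and 137 CPM. Hmgb2 stood at 932, 475 and 222 CPM, also above all 3 at 115, 153 and 121 CPM. Other members were high in 1 or 2 libraries and near 0 in the rest. Pclaf was at 0.8, 0.132 and 263 CPM, Cdk1 at 0, 248.8 and 0.357 CPM and Nusap1 at 318, 77.2 and 0.336 CPM. All 3 genes overlapped with GF sham.

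Against GF sham, all 3 day 7 libraries were higher for 0 members, where 5.34% of all genes were, and lower for 7, where 11.6% were. The median log2 fold change was -0.05 over members, 0.49 over mitosis genes, -1.63 over S phase genes and -2.1 over all genes. The edgeR fit called 9 of 54 members, where 14.4% of all genes were called. DESeq2 called 29, 23 lower and 6 higher (42.6% of all genes), and limma voom 1, Hmgb2, higher (6.81%). In the edgeR fit Ccnd1, Aurka, Aurkb, Kif11, Mcm3, Mcm5 and Cdca8 fell, and Hmgb2 and Pclaf rose. Ccnd1 was at 3.26, 0.808 and 0.168 CPM against 0.282, 88.2 and 65.8 CPM in sham, an overlap through sham replicate 1 (log2 fold change -5.18 ± 1.57, edgeR adjusted p = 0.0293, n = 3). Mcm3 was at 0.147, 0.15 and 0.442 CPM against 85.4, 21.4 and 21.6 CPM in sham, with no overlap (-7.43 ± 1.89, edgeR adjusted p = 0.011, n = 3). The rise of Pclaf (6.61 ± 2.07, edgeR adjusted p = 0.0339, n = 3) rests on day 7 replicate 3, and without it the value was -0.95. The count of calls was 5 without GF sham replicate 3 and 4 without day 7 replicate 3. Without that sham library, Mcm5 had no count in either group, and 6 others no longer passed. They were Hmgb2 (edgeR adjusted p = 0.0693), Pclaf (0.0723), Aurkb (0.0826), Aurka (0.118), Kif11 (0.176) and Cdca8 (0.198), which leaves Ccnd1 (0.0487) and Mcm3 (0.0121) of the 9.

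Against GF day 3, edgeR called 20 members, 19 lower and Hmgb2 higher, where 15.3% of all genes were called. All 3 day 7 libraries were lower for 29 members, against 32.6% of all genes. The median log2 change was -1.97 over members, -1.39 over mitosis genes, -5.17 over S phase genes and -2.49 over all genes. DESeq2 called 24, 23 lower and 1 higher (42.2% of all genes), and limma voom 30, 28 lower and 2 higher (28.5%). By edgeR, Mki67 (-9.67 ± 2.21, edgeR adjusted p = 0.0063), Cdca8 (-10.46 ± 2.33, 0.0055) and Tk1 (-7.99 ± 2.03, 0.0114) were among those that fell. 

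Aurkb, the mitotic kinase partnered with Birc5, went from 26.3, 26.05 and 27.2 CPM at GF day 3 to no count in any day 7 library. Aurka, a kinase of spindle poles, went from 17.0, 14.9 and 20.5 CPM to no count. Kif11, the spindle motor Eg5, went from 5.64, 13.9 and 10.99 CPM to 0.0421, 0 and 0 CPM. All 3 were apart between the days. Kif20a, a kinesin of cell separation, went from 14.9, 34.9 and 16.4 CPM to 0.126, 0 and 0 CPM. Tpx2, which activates Aurka on the spindle, went from 17.2, 36.0 and 28.0 CPM to 0.0842, 0 and 0.168 CPM. Cdca3 went from 21.9, 29.65 and 29.0 CPM to 0, 0.226 and 0 CPM. These were apart as well, and SPF day 7 libraries held all 6 genes, at 0.518 to 22.9 CPM.

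Plk1, a kinase of mitotic entry, went from 22.2, 8.57 and 28.0 CPM to 0, 0 and 0.168 CPM. Bub1b, of the spindle checkpoint, went from 7.26, 10.65 and 10.04 CPM to no count, and Cdc45, of the replicative helicase, from 1.97, 3.75 and 15.2 CPM to no count. Mcm7, of the same helicase, went from 44.5, 40.1 and 57.6 CPM to 0.337, 0.263 and 0.231 CPM. In all 4 genes every day 7 library was below every day 3 library. The count was 13, 12 or 13 without GF day 3 replicate 1, 2 or 3, and 12 or 10 without day 7 replicate 1 or 3.

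**Figure D5:**
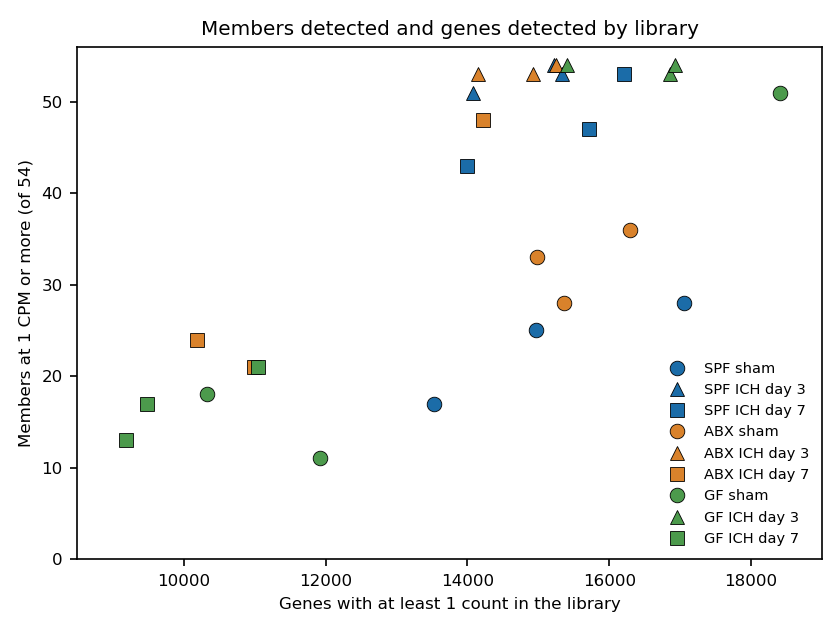
Members at 1 CPM or more against genes detected, per library, with circles for sham, triangles for ICH day 3 and squares for ICH day 7, coloured by kind of mouse. The 7 libraries with fewer than 12000 genes hold 11 to 24 members, while among the others the day 3 libraries hold 51 to 54 and the SPF and ABX sham libraries 17 to 36 at similar numbers of genes.

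Sham libraries were compared between kinds of mice because they set the baseline. The edgeR fit called 0 members in ABX against SPF sham (0.0% of all genes) and 0 in GF against SPF sham (0.00569%). Unadjusted p-values under 0.05 numbered 3 and 8, DESeq2 called 4, Bub1, Bub1b, Gins2 and Kif23 (3.55% of all genes), and 6 (5.3%), and limma voom 1, Gins2, lower in ABX mice (0.615%), and 0 (0.0%). GF sham replicate 3 stood apart from the other 8 sham libraries. It had 25 of 27 mitosis genes at 1 CPM or more, against 3 to 13 in the others, and was the highest of the 9 for 16 of the 27. It also had the most genes detected of all libraries, 18408.

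With that library as the only GF sham, a choice made after the data were seen, all 3 GF day 3 libraries were above it for 49 of 54 members, where 22.7% of all genes were. These included 26 of 27 mitosis and 14 of 16 S phase genes. The median log2 ratio of the day 3 mean to that library was 1.76 over the 26 mitosis genes with a count in it, and 1.66 over 15 S phase genes. The GF day 3 fold changes above were measured against this library and 2 with few genes.

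At day 3 itself, GF libraries were lower than SPF libraries for many members. All 3 GF libraries lay below all 3 SPF libraries for 19 members, 11 of mitosis, 5 of S phase and 3 of broader use, against 5.44% of all genes, and above them for 0. These included Birc5, Top2a, Ccna2, Aurka, Aurkb, Cenpf, Pcna, Rrm1, Pclaf, Stmn1, Hmgb2 and Tubb5. The median log2 difference over the 54 was -0.82, against 0.02 over all genes, with 50 of 54 negative. The 19 log2 differences ran from -0.58 for Tubb5 to -1.61 for Cenpf. By edgeR 0 members and 0.0% of all genes were called, 0 members had an unadjusted p under 0.05, DESeq2 called 0 (3.52% of all genes) and limma voom 1, Stmn1 (1.48%). No library of this comparison is among the 7 with few genes, but each fit estimated the spread from all 27 libraries. In edgeR without those 7, 0 members and 0 of 22071 genes were called.

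ABX and SPF mice were close at day 3. ABX libraries were all higher for 2 members, Gins2 and Cdk1, against 3.74% of all genes, and all lower for 1, Mcm7, against 3.77%. The median log2 difference was 0.06, against 0.00 over all genes. By edgeR 0 members and 0.0% of all genes were called, with 0 at an unadjusted p under 0.05, 0 by DESeq2 (4.7% of all genes) and 0 by limma voom (0.216%). These values do not show that the 2 kinds of mice were alike, given a coefficient of variation of 1.54 between replicates.

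At day 7 ABX libraries were all below SPF libraries for 8 members, against 18.5% of all genes, and GF libraries for 17, against 24.4%. In ABX against SPF mice edgeR called 0 members, where 0.0854% of all genes were called, with 6 at an unadjusted p under 0.05. DESeq2 called 9 (27.2% of all genes), limma voom 0 (1.47%) and edgeR without the 7 libraries with few genes 2, Tubb5 and Hmgb2, both higher in ABX mice (6.76%). In GF against SPF mice it called 14, where 12.9% of all genes were called, DESeq2 23 (38.8%) and limma voom 15 (19.2%). Of the 14 by edgeR, 13 were lower in GF mice, among them Mki67 (-8.66 ± 2.12, edgeR adjusted p = 0.0119), and Hmgb2 was higher (2.45 ± 0.62, 0.0132). The count was 8 or 6 without SPF day 7 replicate 2 or 3 and 5 without GF day 7 replicate 1 or 3. All 3 GF libraries here are among the 7 with few genes.

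Whether the response itself differed was tested as an interaction. For day 3, 0 members passed in edgeR for ABX against SPF (0.0% of all genes), with 1 at an unadjusted p under 0.05, 2 by DESeq2, Bub1 and Kif23 (4.13%), and 1 by limma voom, Gins2 (0.125%). For GF against SPF at day 3, 0 passed (0.0%), with 5 at an unadjusted p under 0.05, 2 by DESeq2, Bub1 and Cdc6 (3.05%), and 0 by limma voom (0.0%). Bub1 in SPF, Kif23 in ABX and Cdc6 in GF mice had no count in any sham library. For ABX against SPF at day 7, 0 passed (0.0%), with 10 at an unadjusted p under 0.05, 11 by DESeq2 (11.8%) and 0 by limma voom (0.0683%). In edgeR without the 7 libraries with few genes, 3 passed there, Cks2, Gins2 and Tubb5 (2.99%). For GF against SPF at day 7, 13 members passed in edgeR, all more negative in GF mice, where 7.04% of all genes passed. DESeq2 called 22 (30.3%), and limma voom called 4, Aurkb, Cdca3, Tpx2 and Cdca8 (5.31%), all more negative in GF mice. The day 3 changes in ABX and GF mice are therefore not shown to differ from those in SPF mice.

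Other genes of the same waves were read from lists that leave out the 54. Of 32 further mitosis genes, all 3 day 3 libraries lay above sham for 19 in SPF, 22 in ABX and 19 in GF mice, with median log2 fold changes of 3.61, 3.15 and 2.53. Of 30 further S phase genes, 16, 12 and 13 did so, with medians of 2.04, 1.74 and 2.06. Over all genes the shares above sham were 9.18%, 9.74% and 10.8% and the medians -0.07, 0.00 and 0.23. By edgeR 0 genes of either list passed at day 3, with unadjusted p-values under 0.05 for 10, 8 and 2 of the mitosis genes and 9, 7 and 1 of the S phase genes. The median of the further mitosis genes was again above that of the further S phase genes in each kind of mouse. In promoters, the CHR letters were in 18 of 27 further mitosis genes (66.7%) and an E2F word in 10 of 21 further S phase genes (47.6%).

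Regulators of the cycle were read in the same way. Of 24 tested, all 3 day 3 libraries lay above sham for 3 in SPF, 5 in ABX and 3 in GF mice, against the same shares of all genes. They lay below sham for 3, 2 and 0, against 6.98%, 10.1% and 2.98% of all genes. By edgeR 0 passed, with 7, 2 and 3 at an unadjusted p under 0.05. Foxm1, the factor that joins MuvB to drive mitosis genes, was at 0, 0 and 0 CPM in SPF sham and at 2.90, 5.69 and 1.47 CPM at day 3. Mybl2, its partner B-Myb, was at 0, 0 and 9.72 CPM at SPF day 3 and overlapped with sham. In ABX mice both Foxm1 and Mybl2 overlapped with sham at day 3, and in GF mice both were apart. In GF mice Foxm1 went from 0, 0.0871 and 0.287 to 2.16, 3.45 and 2.92 CPM. Mybl2 went there from 0, 0 and 0 to 4.09, 2.91 and 2.40 CPM. Btg2, an antiproliferative gene, was at 617, 1646 and 432 CPM in SPF sham and at 134, 169.9 and 80.2 CPM at day 3, with no overlap (log2 fold change -2.81 ± 0.92, edgeR adjusted p = 0.659, n = 3). Btg1, of the same family, was at 125, 200.1 and 124 CPM in sham and at 74.8, 50.1 and 42.5 CPM at day 3, also apart (-1.43 ± 0.60).

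Both Btg genes were lower than sham in all 3 libraries at day 3 in ABX mice too, with log2 fold changes of -1.94 ± 0.89 for Btg2 and -0.87 ± 0.59 for Btg1, and overlapped with sham in GF mice. Cdkn1b, the inhibitor p27, and Ccnd3, a D-type cyclin, overlapped with sham at day 3 in all 3 kinds of mice. Of all these further genes, edgeR called Chaf1b at ABX day 7 (higher, adjusted p = 0.0474), where 0.945% of all genes were called. Otherwise it called only genes in comparisons with the GF day 7 libraries. Chaf1b, of a histone chaperone, had no count in ABX sham and stood at 0.284, 0.126 and 152 CPM at day 7, so its mean rests on replicate 3. Against GF sham, Hjurp, Ubr7, Fen1, Tubb4b and Ckap5 fell there and Usp1 and Cbx5 rose, each apart from sham. Ttk, Tacc3, Dlgap5, Rangap1 and Kif2c also fell but overlapped with sham. In that comparison edgeR called 14.4% of all genes. Fen1, the flap endonuclease, was at 769.8, 29.6 and 21.5 CPM in GF sham and at 0, 0.0564 and 0 CPM at day 7, with no overlap (edgeR adjusted p = 0.000831, n = 3).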

How the data were processed

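Counts per gene for 27 libraries were deposited as whole numbers. Per the labels' protocols, low-input RNA was amplified with SMART-Seq v4 and sequenced as pairs of 150 bases. Tools listed in the submitters' processing notes are edgeR, StringTie 1.3.4d, HISAT2 2.0.4 and cutadapt 1.9, with mm10 as the build, and the annotation release, strand setting and counting of mates are not given in the sources used here. Every column was mapped to a sample (0 unmapped). Identifiers were matched to GENCODE M21 symbols.

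Genes were filtered with filterByExpr over the 9 groups, leaving 17573 genes with 99.9% of counts. The 19 comparisons came from 1 robust quasi-likelihood fit of edgeR 4.0.16 (R 4.3.3) over 9 group means, with TMM factors from 0.476 to 1.31 and Benjamini-Hochberg adjusted p-values at 0.05. Each SE is the log2 fold change divided by the square root of F. Log2 CPM used a prior count of 2. Lists have no test.

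The members and lists were chosen with earlier results of these data known. Genes with values per library are Mki67, Top2a, Stmn1, Cdk1, Ccnb1, Rrm2, Pcna, Mcm5, Mcm6, Tyms, Ccnd1, Ccnd2, Cdkn1a, Hmgb2 and Tubb5, the 3 members of each role with the smallest p at SPF day 3, and members or further genes past the threshold anywhere, the last given partly by name or count. Bub1, Kif23, Cks2, Nusap1, Bub1b, Cdc45 and Cdc6, where named for an extreme or for having no count, and members named only because another tool or fit called them were chosen after their values were seen. Of the regulators, Lin54 was not matched.

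Alternatives were DESeq2 1.42.0, limma 3.58.1 voom, DESeq2 size factors, no count filter, a replicate block, leaving out each library and, added after the data were seen, leaving out the 7 libraries under 12000 genes.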

Additional observations from a re-analysis of the deposited data

Results flagged for a closer look

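For 13 members the response to ICH at day 7, as ICH against sham, differed between GF and SPF mice by an interaction test in edgeR, each more negative in GF mice. The log2 differences were -16.18 for Aurkb, -12.10 for Aurka, -16.06 for Bub1, -15.41 for Kif20a, -10.85 for Kif11, -12.23 for Tpx2, -8.71 for Cdca3, -11.60 for Cdca8 and -10.35 for Mki67, all of mitosis. They were -16.00 for Mcm5, -12.82 for Mcm2 and -8.02 for Mcm3, of S phase, and -15.80 for E2f1, of G1 control. Values beyond 10 on the log2 scale come from groups with few or no counts and are not sizes of a change. In the same test 7.04% of all genes passed. Of the 6 GF libraries in the contrast, 5 have fewer than 12000 genes detected, and the part of this in the result was not tested. The count fell to 2, 0 or 1 without SPF sham replicate 1, 2 or 3, to 8 or 6 without SPF day 7 replicate 1 or 3, to 7 without GF sham replicate 3, and to 7 or 5 without GF day 7 replicate 1 or 3.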

How the results depend on the processing

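The number of members called depended on the test. DESeq2 called 27 in SPF, 21 in ABX and 5 in GF mice at day 3, and 12 (4.38% of all genes), 14 (29.8%) and 29 (42.6%) at day 7. It called 23 at ABX day 7 against day 3. Between kinds of mice it called 4 (ABX) and 6 (GF) in sham and 9 and 23 at day 7, and for the differences in response 2 and 2 at day 3 and 11 and 22 at day 7. Limma voom called 28 and 37 at day 3 and 2, 5 and 1 at day 7. It called 3 at SPF day 7 against day 3, 1 in ABX against SPF sham, 1 in GF against SPF mice at day 3, and 1 (ABX, day 3) and 4 (GF, day 7) for the differences. DESeq2 size factors gave 0 at SPF day 3 and 0 at ABX day 7, as did no filter on low counts. Over all genes, the size factors gave 9 and 90 calls of 17573, and no filter gave 13 and 56 of 27305. Without the 7 libraries with few genes, counts were 22 and 19 at day 3 in SPF and ABX mice, 2 and 13 at day 7, 1 at ABX day 7 against day 3, 2 in ABX against SPF mice at day 7 and 3 for that difference. The cause was not tested. That setting leaves no GF day 7 group, so 4 comparisons have no value, and the lone library left in ABX day 7 and in GF sham is assumed to vary like the other groups.

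Deviations of same-numbered libraries were hardly correlated (from -0.106 to 0.089), and no label says that they share more than a number. With 3 libraries per group, these values cannot exclude a shared animal or batch. With the replicate block, calls were 0 at ABX day 7 (105 of all 17573 genes) and 5 at GF day 7 (1942). They were 9 in GF against SPF mice at day 7 (1951 of all genes) and 8 for that difference in response (769). S phase minus mitosis was then -2.00 at SPF day 3 and -1.39 at GF day 7.

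Leaving out single libraries, counts of calls ranged from 0 to 1 at SPF day 3 and at ABX day 3, 0 to 2 at ABX day 7, 4 to 11 at GF day 7, 10 to 16 for GF day 7 against day 3, 5 to 12 in GF against SPF mice at day 7 and 0 to 15 for that difference. S phase minus mitosis ranged from -3.65 to -0.51 (SPF day 3), -3.67 to -0.79 (SPF day 7), -2.78 to -1.59 (ABX day 3), -3.48 to -1.67 (ABX day 7), -0.55 to 0.32 (GF day 3) and -1.92 to 1.32 (GF day 7). By limma voom it was -3.01 at ABX day 3, 0.37 at GF day 3 and -0.31 at GF day 7, and without the libraries with few genes 0.12 at GF day 3.

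Of 576 values of named genes under alternatives, 463 kept direction and side of the threshold, 37 newly passed, 61 no longer passed and 15 changed sign. At GF day 3, Mcm6 was 4.13 by limma voom, 2.29 without the libraries with few genes and 3.28 without GF sham replicate 1, and Pcna was 0.31, 0.83 and 0.49. Hmgb2 was -0.38 by DESeq2 and with its size factors, and -0.31, -0.09 and -0.05 without GF sham replicate 2 or 3 or day 3 replicate 2. Tubb5 was -0.13, -0.13 and, without GF sham replicate 3, -0.06. Over all settings that leave out single libraries, the ranges were -1.85 to 3.28 (Mcm6), -1.05 to 0.49 (Pcna), -0.31 to 0.97 (Hmgb2), -0.06 to 0.73 (Tubb5) and, for Pclaf at GF day 7, -0.95 to 7.22, the lowest without day 7 replicate 3.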

Other observations

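Single libraries held most of some members' counts, and this differed by group. Among members with a group mean of at least 10 CPM, 1 library held over 90% of the group's summed level for 13 of 28 in ABX ICH day 7, 14 of 26 in GF ICH day 7 and 4 of 14 in GF sham. In the other 6 groups it did so for 0 members, except for 1 of 14 in SPF sham, which is Mcm3. The same pattern held over all genes of at least that level, with 38.3%, 37.6% and 18.9% in the first 3 groups and at most 1.75% in the others. The level and the share were chosen after the data were seen. In the 9 day 3 libraries, where 47 to 53 members reached that level in each group, it was seen for 0 members.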
